A study of Homo sapiens with 8 samples.

Results

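The SRSF family comprises serine and arginine rich splicing factors (SR proteins). The family was represented here by the 10 genes SRSF1, SRSF2, SRSF3, SRSF4, SRSF5, SRSF6, SRSF7, SRSF9, SRSF10 and SRSF11, chosen by symbol among the 61906 genes of the deposited table. All 10 were found, all 10 passed the filter used here, an average of 1 TPM or more over the libraries (an expression level corrected for transcript length and library total), and they were tested along with 14478 genes in all. The data came from U251 cells, a human glioblastoma line labelled wild type (WT), treated with vehicle (DMSO, 4 libraries) or with 100 nM of LLY-283, a small-molecule inhibitor of the arginine methyltransferase PRMT5 (4 libraries), for 24 h and without irradiation stated for these cultures. RNAseq was performed on poly(A) RNA. The labels call the replicates biological but do not say how the cultures were separated, so p-values measure the spread between these libraries.

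SR proteins carry at least an RNA recognition motif and a domain rich in arginine and serine. They bind exonic enhancer sequences, help the spliceosome to define exons, and some of them shuttle to the cytoplasm with mRNA. Their activity is set by phosphorylation through the SRPK and CLK kinases, and most SR genes limit their own mRNA by splicing in an exon with a premature stop codon, which sends the transcript to nonsense-mediated decay (NMD). PRMT5 places symmetric dimethyl groups on arginines of spliceosomal proteins, the Sm proteins among them.

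All 10 SRSF genes had at least 1 transcript annotated as an NMD target in GENCODE release 44 (from 1 for SRSF5 and SRSF6 to 6 for SRSF7). The share was 48.1% among the 12095 protein-coding genes tested. These were not matched to the SRSF genes for expression level or for number of annotated transcripts (6 for SRSF6 to 19 for SRSF5). The deposited values add up all transcripts of a gene, so that an mRNA with the poison exon and an mRNA without it were counted alike. Promoters (windows of 300 bases across a start listed by RefSeq on GRCh38.p14, most of the bases upstream) were found for 9 of the 10 genes. These windows are shown for the 3 genes with the highest fold increase and for the gene that decreased. They are shown because these genes were called in opposite directions, although the call of the decreased gene, SRSF5, was lost in 7 of 20 alternative fits. Capitals mark the CCAAT box, the GC box written GGGCGG, and the TATA box written TATAAA. Each was read on both strands, and none overlapped another.
SRSF3 (chr6:36594112-36594411, plus strand): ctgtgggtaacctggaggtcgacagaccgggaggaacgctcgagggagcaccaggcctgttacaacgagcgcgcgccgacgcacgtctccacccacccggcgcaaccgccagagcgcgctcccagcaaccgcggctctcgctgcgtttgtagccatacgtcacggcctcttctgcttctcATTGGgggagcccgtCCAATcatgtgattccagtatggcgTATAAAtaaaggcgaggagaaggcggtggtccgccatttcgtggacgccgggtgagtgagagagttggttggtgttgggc
SRSF4 (chr1:29181851-29182150, minus strand): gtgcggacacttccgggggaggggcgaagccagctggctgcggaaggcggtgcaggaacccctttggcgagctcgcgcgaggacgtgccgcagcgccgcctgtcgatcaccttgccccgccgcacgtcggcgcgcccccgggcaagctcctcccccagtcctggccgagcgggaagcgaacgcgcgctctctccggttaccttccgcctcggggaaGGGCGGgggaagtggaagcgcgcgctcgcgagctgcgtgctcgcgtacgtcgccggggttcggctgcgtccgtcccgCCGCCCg
SRSF7 (chr2:38751312-38751611, minus strand, the downstream of 2 listed starts): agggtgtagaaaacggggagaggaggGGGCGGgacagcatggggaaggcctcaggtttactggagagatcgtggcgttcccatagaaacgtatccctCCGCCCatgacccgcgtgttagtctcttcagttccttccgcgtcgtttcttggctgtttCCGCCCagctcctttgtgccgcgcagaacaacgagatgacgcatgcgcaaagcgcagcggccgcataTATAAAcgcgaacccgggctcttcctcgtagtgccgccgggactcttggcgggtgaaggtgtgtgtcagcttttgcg
SRSF5 (chr14:69766892-69767191, plus strand): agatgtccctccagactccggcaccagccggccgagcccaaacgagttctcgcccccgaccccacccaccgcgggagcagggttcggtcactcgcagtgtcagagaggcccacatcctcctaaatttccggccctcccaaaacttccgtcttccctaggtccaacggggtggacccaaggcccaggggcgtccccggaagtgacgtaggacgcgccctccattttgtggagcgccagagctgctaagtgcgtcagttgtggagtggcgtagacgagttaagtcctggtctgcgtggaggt
The 9 genes had 11 windows, since SRSF7 and SRSF11 each have 2 listed starts. The CCAAT box was found in 1 of the 11 windows (SRSF3) and in 34.6% of all 34943 windows of this length. GGGCGG was found in 5 windows (SRSF4, SRSF6, both of SRSF7 and 1 of the 2 of SRSF11) against 44.9% of all windows. The 2 SRSF7 windows overlap and share their GC boxes, and by gene GGGCGG was found in 4 of the 9. TATAAA was found in 3 windows (SRSF3, and 1 of the 2 of SRSF7 and of SRSF11) against 11.6%. The E-box CACGTG was found in 0 of the 11 windows, against 7.23% of all windows. The SRSF5 window lies inside the GENCODE span of that gene (69726900 to 69772005) and not at its outer start. The same holds for the windows of SRSF9 and SRSF10 and for 1 of the 2 of SRSF11. None of the 3 marked motifs was present in the SRSF5 window, nor in those of SRSF1 (an increased gene), SRSF9 and SRSF10. These matches describe letters in the window and not binding.

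U251 cells expressed the glial and mesenchymal markers VIM, CD44, GFAP, NES, SOX9 and SOX2, each at 84.48 TPM or more in every library, whereas S100B was low (2.34 to 4.94 TPM). Of these 7 markers, 3 were decreased with LLY-283 at an adjusted p-value under 0.05, namely SOX2 (log2 fold change, log2FC, on the log2(TPM + 0.1) scale, -0.27, limma adjusted p = 0.000349), NES (log2FC -0.17, limma adjusted p = 0.000731) and GFAP (log2FC -0.25, limma adjusted p = 0.00082), and CD44 was increased (log2FC 0.11, limma adjusted p = 0.0168), beside 17.6% decreased and 8.61% increased among all genes tested. The CD44 call was lost in 5 of 20 alternatives (without vehicle replicate 1, without vehicle replicate 4, without a filter on low values, with quantile normalization, and with the replicate block and GC and length trends removed). The part of a change in cell state in the SRSF results was not tested. The 8 markers of other cell types stayed at or below 0.2 TPM. PRMT5 mRNA was 100.0 ± 5.03 TPM in vehicle and 100.4 ± 4.91 TPM in LLY-283 (mean ± SD, n = 4 each). Of the 5 genes listed for PRMT5 and its partners, 1 passed the test as increased: the adaptor RIOK1 had 14.74 ± 0.764 TPM with vehicle and 16.62 ± 0.473 TPM with LLY-283 (log2FC 0.17, limma adjusted p = 0.0287). The RIOK1 call was lost in 6 of 20 alternatives. These were no filter on low values, and leaving out vehicle replicate 2, 3 or 4 or LLY-283 replicate 1 or 3. Of the 5 genes, 0 were decreased in the main fit. In this list 1 gene was decreased without LLY-283 replicate 4, and 1 with mitochondrial genes left out. The decreased share of all genes was 18.5% and 18.1% in these fits, respectively. LLY-283 replicate 4 stood apart from the other libraries in that mitochondrial genes took 7.19% of its TPM, against 10.15% to 11.0% elsewhere. Several results are therefore given with and without this library. Without it, 4 of the 7 U251 markers were decreased, beside 18.5% of all genes tested in that fit. The count was also 4 without vehicle replicate 1, with quantile normalization and with mitochondrial genes left out. Of all genes, 14.3%, 12.6% and 18.1% were decreased in these fits, respectively. TPM values keep no record of read number, so the depth is unknown and no counting error can be given.

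After LLY-283, 5 of the 10 SRSF genes were increased (SRSF1, SRSF2, SRSF3, SRSF4 and SRSF7) and 1 was decreased (SRSF5) at an adjusted p-value under 0.05 (limma, two-sided, Benjamini-Hochberg adjustment over the 14478 genes). The background was 8.61% of all genes tested increased and 17.6% decreased, or, among the 1642 genes averaging 100 TPM or more, the range in which all 10 SRSF genes lie, 18.5% increased and 11.7% decreased. The excess of decreases over all genes depended on the scaling: 13.3% were increased and 12.9% decreased with median-of-ratios scaling, and 12.9% and 12.6% with quantile normalization, while the 5 SRSF increases held under both. SRSF6, SRSF9, SRSF10 and SRSF11 did not pass the test. The 4 LLY-283 and 4 vehicle values did not overlap for the 5 increased genes, and for 9.63% of all genes tested in that direction. The changes were small: the largest was 1.28-fold (SRSF7), and by limma 0 of the 10 genes changed more than 1.5-fold, at an adjusted or at an unadjusted p under 0.05, against 3.87% of all genes at the adjusted p. For the 10 genes, log2FC had a median of 0.08, against -0.05 for all genes tested. Both medians depended on the scaling. With quantile normalization they were 0.0752 for the 10 genes and 0.0145 for all genes. With median-of-ratios scaling they were 0.128 and -0.0021. In bulk RNA, a change in the share of cells in a given state and a change of mRNA per cell cannot be told apart.

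**Figure D1:**
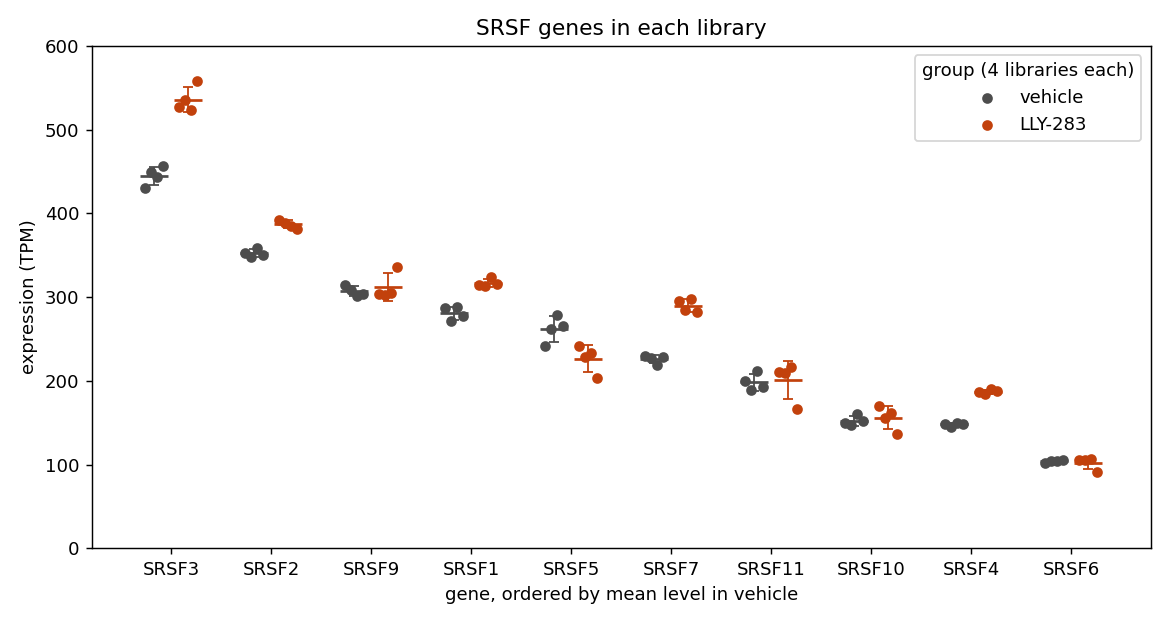
Expression (TPM, linear axis from 0) of the 10 SRSF genes in each library, with 4 vehicle (grey) and 4 LLY-283 (orange) points per gene in replicate order, the mean as a bar and the SD as the error bar. The groups are apart for SRSF3, SRSF2, SRSF1, SRSF7 and SRSF4, and LLY-283 replicate 4 is the lowest of its group for SRSF2, SRSF5, SRSF6, SRSF7, SRSF10 and SRSF11.

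In vehicle-treated cells the order of expression was SRSF3, SRSF2, SRSF9, SRSF1, SRSF5, SRSF7, SRSF11, SRSF10, SRSF4 and SRSF6, from 444.7 to 104.2 TPM on average. The library ranges of neighbours in this order overlapped for SRSF1 with SRSF5 and for SRSF10 with SRSF4, and for no other neighbours. Averaged over all libraries, even SRSF6 lay above 89.1% of the genes tested, and SRSF3 above 98.1%. In LLY-283-treated cells the order became SRSF3, SRSF2, SRSF1, SRSF9, SRSF7, SRSF5, SRSF11, SRSF4, SRSF10 and SRSF6. SRSF7 passed SRSF5, without overlap of their ranges in either group, and SRSF4 passed SRSF10. In the LLY-283 libraries, the overlapping neighbours were SRSF1 with SRSF9, SRSF5 with SRSF11, and SRSF11 with SRSF4.

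SRSF1, SRSF3 and SRSF7 act in splicing and, as adaptors of the export receptor NXF1, in mRNA export. SRSF3 (ENSG00000112081, chromosome 6, 36594353 to 36605600 of GRCh38), the smallest of the classical SR proteins, had 430.31, 449.17, 442.9 and 456.38 TPM with vehicle and 527.6, 535.02, 523.62 and 557.62 TPM with LLY-283. Every LLY-283 library lay above every vehicle library, by at least the distance from 456.38 to 523.62 TPM. The mean rose from 444.7 ± 11.1 to 536.0 ± 15.2 TPM (mean ± SD, n = 4 each), with log2FC at 0.27 (standard error, SE, 0.0295, limma adjusted p = 0.00034).

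SRSF7 (ENSG00000115875, chromosome 2, 38743599 to 38751494), which also carries a zinc knuckle, had 229.8, 227.81, 218.97 and 228.45 TPM with vehicle and 295.1, 284.3, 297.87 and 281.97 TPM with LLY-283. This was the largest fold increase of the family (log2FC 0.36, 95% interval 0.29 to 0.42, SE 0.0288, limma adjusted p = 7.44e-05), and the groups did not overlap. SRSF1 (ENSG00000136450, chromosome 17, 58000919 to 58007346), the founding SR protein, had 286.5, 271.22, 287.58 and 277.12 TPM with vehicle and 313.99, 313.64, 323.77 and 315.95 TPM with LLY-283. All LLY-283 values were again the higher ones, with log2FC at 0.18 (SE 0.0274, limma adjusted p = 0.00182).
The protein-coding gene ENSG00000266086, annotated on the same strand over SRSF1, went the other way, from 14.5 ± 1.6 to 10.8 ± 0.989 TPM (mean ± SD of 4 libraries each), a log2FC of -0.42 (limma adjusted p = 0.009). How RSEM divided the reads that both models share was not tested. ENSG00000279069, on the other strand, was at 1.76 ± 0.173 TPM with vehicle and 1.25 ± 0.0931 TPM with LLY-283.

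SRSF2 (ENSG00000161547, chromosome 17, 76734115 to 76737333), an SR protein of the nuclear speckles that stays in the nucleus, had 352.73, 347.29, 358.41 and 350.76 TPM with vehicle and 391.89, 389.09, 385.16 and 381.28 TPM with LLY-283. It was the smallest of the 5 increases (1.1-fold, log2FC 0.14, SE 0.0227, limma adjusted p = 0.00265), with groups that did not overlap and the least spread of the family among the LLY-283 libraries (coefficient of variation 1.2%). MFSD11, which overlaps SRSF2 on the other strand, went down from 18.6 ± 0.843 to 14.5 ± 1.37 TPM (mean ± SD of 4 libraries each), a log2FC of -0.35 (limma adjusted p = 0.00535). The strandedness of the counting is not given in the sources used here, so that reads from the overlap could be assigned to either gene.

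SRSF4, SRSF5 and SRSF6 are closely related SR proteins that carry an additional, variant RNA recognition motif, as SRSF1 and SRSF9 also do. SRSF4 (ENSG00000116350, chromosome 1, 29147743 to 29181900) had 147.93, 145.13, 149.76 and 148.95 TPM with vehicle and 186.95, 184.21, 189.7 and 187.49 TPM with LLY-283. The libraries of each group lay close together (coefficient of variation 1.36% and 1.21%) and the groups were well apart, so that SRSF4 had the smallest p-value of the family, with log2FC at 0.34 (SE 0.0239, limma adjusted p = 4.25e-05). It ranked 35 among the 14478 genes by p-value.

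SRSF5 (ENSG00000100650, chromosome 14, 69726900 to 69772005) had 240.99, 261.29, 279.11 and 265.71 TPM with vehicle and 241.8, 228.1, 232.79 and 203.47 TPM with LLY-283. The groups overlapped, since vehicle replicate 1 lay just below LLY-283 replicate 1. The mean was 261.8 ± 15.8 TPM with vehicle and 226.5 ± 16.4 TPM with LLY-283 (mean ± SD, n = 4 each), with log2FC at -0.21 (SE 0.0589, limma adjusted p = 0.028). This call was not stable: the adjusted p-value ranged from 0.0184 to 0.0755 over 20 alternatives and missed the threshold in 7 of them, among them leaving out vehicle replicate 2 (0.0602), 3 (0.0755) or 4 (0.0698) or LLY-283 replicate 2 (0.0571). The value stayed negative in all 20.

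SRSF6 (ENSG00000124193, chromosome 20, 43457893 to 43466046) had 101.98, 104.68, 104.64 and 105.5 TPM with vehicle and 105.34, 105.94, 106.27 and 90.97 TPM with LLY-283. LLY-283 replicate 1 lay within the vehicle range, replicates 2 and 3 lay just above it, and replicate 4 lay below it. The log2 fold change was -0.03 (95% interval -0.14 to 0.08, adjusted p = 0.674, limma), and 0.02 without LLY-283 replicate 4 (adjusted p = 0.499).

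**Figure D2:**
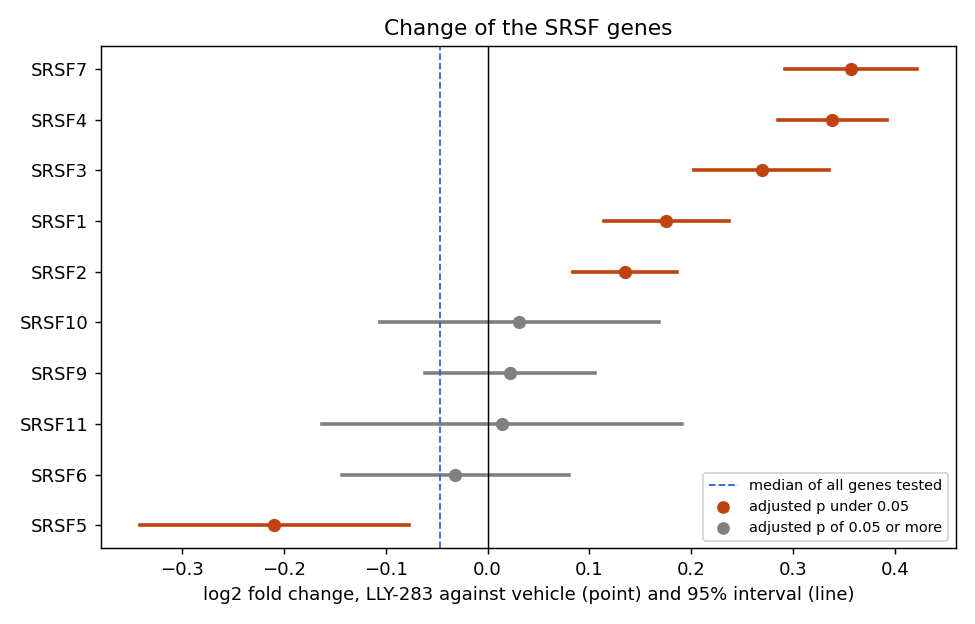
Log2 fold change of each SRSF gene (point) with its 95% interval from limma (line), LLY-283 against vehicle, in orange where the adjusted p-value is under 0.05. The dashed line is the median of all 14478 genes tested (-0.05), and the intervals of SRSF10, SRSF9, SRSF11 and SRSF6 include 0.

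SRSF9, SRSF10 and SRSF11 did not pass the test. SRSF9 (ENSG00000111786, chromosome 12, 120461672 to 120495946), an SR protein with a short arginine and serine rich tail, had 314.95, 309.0, 301.24 and 303.2 TPM with vehicle and 304.08, 302.94, 304.98 and 336.24 TPM with LLY-283. Its LLY-283 values fell within the vehicle range except in replicate 4, which was above it. The log2 fold change was 0.02 (95% interval -0.06 to 0.11, adjusted p = 0.702, limma), and -0.01 without LLY-283 replicate 4 (adjusted p = 0.649). On the same strand SRSF9 overlaps the noncoding gene NRAV (16.0 ± 1.59 TPM with vehicle and 13.9 ± 0.986 TPM with LLY-283, SD, n = 4 each). On the other strand lie DYNLL1 (755.0 ± 18.6 and 736.0 ± 12.6 TPM) and GATC (21.8 ± 0.717 and 18.9 ± 1.15 TPM). How reads were divided among these genes was not tested.

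SRSF10 (ENSG00000188529, chromosome 1, 23964347 to 23980927), which acts as a splicing repressor when it is dephosphorylated, had 149.53, 147.06, 160.22 and 152.39 TPM with vehicle and 169.75, 156.09, 161.5 and 136.85 TPM with LLY-283. The LLY-283 libraries spanned a wider range than the vehicle libraries and reached beyond it at both ends. The log2 fold change was 0.03 (95% interval -0.11 to 0.17, adjusted p = 0.74, limma), and 0.09 without LLY-283 replicate 4 (adjusted p = 0.103). SRSF11 (ENSG00000116754, chromosome 1, 70205682 to 70253052), also known as p54, had 199.82, 188.73, 212.18 and 192.22 TPM with vehicle and 210.83, 209.75, 216.71 and 166.79 TPM with LLY-283. It was the most variable member among the LLY-283 libraries (coefficient of variation 11.5%), and its log2 fold change of 0.01 (95% interval -0.16 to 0.19, adjusted p = 0.916, limma) became 0.10 without LLY-283 replicate 4 (adjusted p = 0.0887). These intervals leave room for small changes in either direction.

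**Figure D3:**
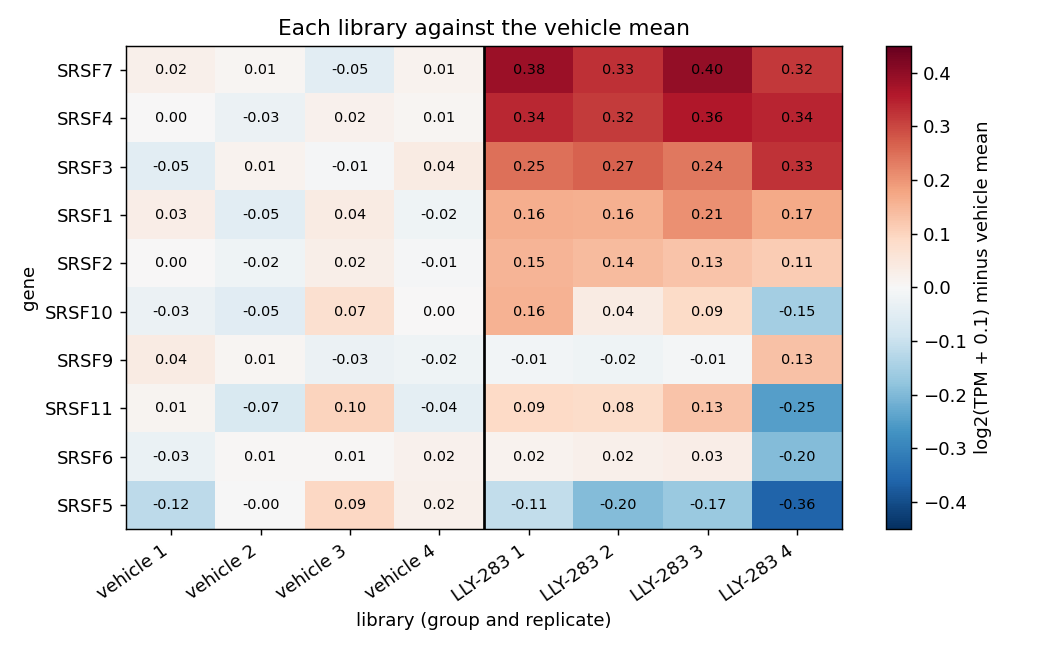
Difference of log2(TPM + 0.1) from the mean of the vehicle libraries, for each SRSF gene (rows, by fold change) and library (columns), with red for higher and blue for lower values. SRSF7, SRSF4, SRSF3, SRSF1 and SRSF2 are above 0 in all 4 LLY-283 libraries, and LLY-283 replicate 4 differs from the other 3 in SRSF10, SRSF9, SRSF11 and SRSF6.

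LLY-283 replicate 4 departed from the other LLY-283 libraries in both directions within the family. Against the vehicle mean, SRSF5 was at -0.36, SRSF11 at -0.25, SRSF6 at -0.20 and SRSF10 at -0.15 on the log2 scale in this library, while SRSF9 was at 0.13 and SRSF3 at 0.33. SRSF1, SRSF2, SRSF4 and SRSF7 kept values between 0.11 and 0.34 in it. Without LLY-283 replicate 4, the counts were again 5 increased and 1 decreased gene, beside 10.3% increased and 18.5% decreased among all genes. In that fit all 10 genes together had a median log2FC of 0.12. Each of the 5 increased genes stayed increased at an adjusted p-value under 0.05 in all 20 alternatives, with each library left out, the other scalings and the replicate block among them.

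The summed level of the 10 genes was 2454.5, 2451.4, 2515.0 and 2480.7 TPM in the vehicle libraries and 2747.3, 2709.1, 2742.4 and 2658.6 TPM in the LLY-283 libraries. All LLY-283 sums lay above all vehicle sums. Within this sum, SRSF3 took 18.0% ± 0.458 with vehicle and 19.8% ± 0.862 with LLY-283 (mean ± SD, n = 4 each), and SRSF7 went from 9.14% ± 0.297 to 10.7% ± 0.16. The share of SRSF5 went from 10.6% ± 0.539 to 8.34% ± 0.487, whereas that of SRSF2 was 14.2% ± 0.104 and 14.3% ± 0.145. The ratio of SRSF7 to SRSF5 within a library, which does not depend on the scaling of the libraries, was 0.954, 0.872, 0.785 and 0.86 with vehicle and 1.22, 1.246, 1.28 and 1.386 with LLY-283. SRSF7 was thus the lower of the pair in every vehicle library and the higher in every LLY-283 library. This pair was chosen after its values were seen, and its difference was not tested.

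Processed gene copies could draw reads from their parent genes. The table lists 11 genes named as copies of the SRSF members, and none reached a mean of 1 TPM (highest value 0.5 TPM, in SRSF6P2). How shared reads were divided between copies and members was not tested.

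Among the other genes for SR and SR-related proteins, 30 of 32 averaged 1 TPM or more. Of these 30, 11 were increased and 1 was decreased at an adjusted p-value under 0.05 (limma), with 0.10 as the median log2FC, beside 8.61% increased and 17.6% decreased among all genes tested (18.5% and 11.7% among those averaging 100 TPM or more). Without LLY-283 replicate 4, 18 were increased and 2 were decreased, beside 10.3% increased and 18.5% decreased among all genes in that fit. Without LLY-283 replicate 2, 2 were decreased, beside 14.1% of all genes. TRA2B, an SR-like activator of exon inclusion, rose from 248.7 ± 8.42 to 294.8 ± 2.91 TPM (mean ± SD of 4 libraries each), a log2FC of 0.25 (limma adjusted p = 0.000456). CLASRP, a partner of the kinase CLK4, rose from 65.65 ± 1.44 to 101.8 ± 13.3 TPM (log2FC 0.62, limma adjusted p = 0.000839). BCLAF1, an arginine and serine rich RNA-binding protein, rose from 154.0 ± 11.5 to 201.5 ± 8.0 TPM (log2FC 0.39, limma adjusted p = 0.000865). ARGLU1, a splicing and transcription coactivator, fell from 46.9 ± 3.56 to 35.7 ± 3.91 TPM (log2FC -0.40, limma adjusted p = 0.00739). The family members outside the 10, SRSF8 (33.7 ± 1.86 TPM with vehicle and 34.2 ± 1.76 TPM with LLY-283) and SRSF12 (1.502 ± 0.229 and 1.17 ± 0.136 TPM), did not pass the test (adjusted p = 0.793 and 0.212, limma).

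Of 20 genes that phosphorylate, dephosphorylate or carry SR proteins, 2 were increased, 3 were decreased and 15 did not pass the test, with a median log2FC of 0.02. The called share of 25% was near that of all genes tested (8.61% increased plus 17.6% decreased). Without LLY-283 replicate 4, 4 were increased, beside 10.3% of all genes in that fit. The increased genes were ALYREF, an mRNA export adaptor (log2FC 0.35, limma adjusted p = 0.00205), and PRPF4B, a kinase of spliceosomal proteins (log2FC 0.33, limma adjusted p = 0.00328). The decreased genes were NXF1, the export receptor to which SRSF1, SRSF3 and SRSF7 bind (67.97 ± 2.93 TPM with vehicle and 56.04 ± 3.36 TPM with LLY-283, log2FC -0.28, limma adjusted p = 0.00362), the kinase DYRK1B (log2FC -0.28, limma adjusted p = 0.0182) and the SR protein kinase SRPK2 (log2FC -0.19, limma adjusted p = 0.0475). The SRPK2 call was lost in 10 of 20 alternatives, and that of DYRK1B in 2. CLK1, CLK2, CLK3, CLK4 and SRPK1 did not pass the test. They were named after their values were seen, as the best known SR kinases, and their log2 fold changes were 0.01, 0.04, 0.04, 0.23 and -0.10, with adjusted p-values from 0.156 to 0.942 (limma).

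**Figure D4:**
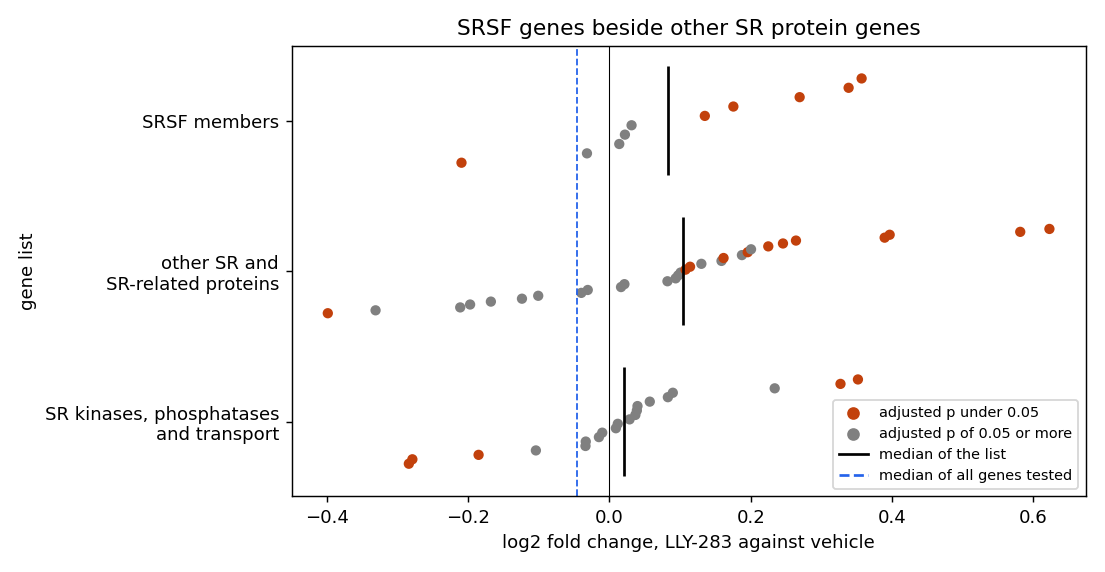
Log2 fold change, LLY-283 against vehicle, of every tested gene in 3 lists, spread vertically by rank within each list, with the median of each list as a black line and that of all genes tested as a dashed line. The medians are 0.08 for the 10 SRSF genes, 0.10 for 30 other SR and SR-related genes and 0.02 for 20 genes of SR kinases, phosphatases and transport.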

How the data were processed

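Per the labels and the methods, the authors captured poly(A) RNA, trimmed adapters with Cutadapt 1.18, aligned the reads with STAR to GRCh38, and obtained gene levels on GENCODE release 41 with RSEM (version 1.3.1 in the submitters' processing notes, whereas the methods name other versions of STAR and RSEM). The authors deposited 1 TPM value for each gene in each library, with 2 decimals. TPM corrects for length and library total but not for composition.

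From these, log2(TPM + 0.1) was computed for genes averaging 1 TPM or more, and 4 LLY-283 libraries were compared with 4 vehicle libraries with limma 3.58.1 (lmFit, eBayes with trend) in R 4.3.3 and no block for replicates. P-values were adjusted over the 14478 genes by the Benjamini-Hochberg method, and genes under 0.05 were called. The text names all 10 members, PRMT5, the U251 markers, and up to 3 called genes of each other list in each direction by p-value. It also names overlapping genes of at least 1 TPM where they bear on a member. SRSF8, SRSF12, CLK1, CLK2, CLK3, CLK4 and SRPK1 were named without a call. The members and lists (other SR proteins, SR kinases and transport, NMD and exon junction complex, hnRNP proteins, PRMT5 complex, U251 markers) were chosen with earlier results of these data known. Gene positions came from GENCODE release 44 on GRCh38, the build of the files. The alternatives were other pseudocounts, filters, scalings and eBayes settings, a block for replicates, GC content and length trends removed, and each library left out. Leaving out mitochondrial genes was added after seeing the data. The fit was tested on simulated data. Splicing events were not analysed here.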

Additional observations from a re-analysis of the deposited data

Results flagged for a closer look

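In 3 of 22 groups of 4 libraries examined (the 10 SRSF genes and PRMT5, in each treatment), the highest or lowest library lay farther from the others than a Dixon test allows at its 95% level, and chance alone gives about 1 in 20 groups. All 3 were LLY-283 replicate 4. SRSF6 was at 90.97 TPM in it, against 105.34 to 106.27 TPM in the other LLY-283 libraries. SRSF9 was at 336.24 TPM, against 302.94 to 304.98 TPM. SRSF11 was at 166.79 TPM, against 209.75 to 216.71 TPM. Mitochondrial genes took 7.19% of the TPM of this library, and its part in these values was not tested.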

How the results depend on the processing

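The 5 increases, and the absence of changes beyond 1.5-fold, held in all 20 alternatives. The count of decreased SRSF genes (1, SRSF5) was 0 without a filter on low values (adjusted p = 0.0685 for SRSF5), with eBayes without a trend (0.059) and with the replicate block (0.0522), and 0 to 1 with each library left out. The median log2 fold change of the SRSF genes was 0.13 with median-of-ratios scaling and 0.0766 to 0.1215 with each library left out. Signs near 0 turned. With median-of-ratios scaling SRSF6 was at 0.013, and with GC and length trends removed SRSF11 was at -3e-04, with or without the block. With each library left out, SRSF6 ranged from -0.0519 to 0.0228, SRSF9 from -0.0144 to 0.0357, SRSF10 from -0.0107 to 0.0929, SRSF11 from -0.0248 to 0.101, SRSF8 from -0.0075 to 0.0576 and PRMT5 from -0.0295 to 0.0352. PRMT5 was at -0.0044 under quantile normalization and at -0.0034 without mitochondrial genes. With each library left out, other SR genes gave 10 to 18 increased and 1 to 2 decreased genes, SR kinases and transport 2 to 4 and 2 to 3, NMD genes 1 to 3 decreased, and hnRNP genes 3 to 8 increased and 0 to 1 decreased. Decreased genes numbered 2 among other SR genes with GC and length trends removed, and 1 among SR kinases and transport under quantile normalization. Of all genes, 19.7% and 12.6% were decreased in these fits, respectively. Among NMD genes, 1 was decreased without a filter or after quantile normalization, and 0 after median-of-ratios scaling or in the block fit. The decreased share of all genes was 17.6% in the main fit and 6.49%, 12.6%, 12.9% and 15.2% in these fits, respectively. For hnRNP genes, 4 were increased without a filter, without the eBayes trend and with the block and GC and length trends removed, and 0 were decreased in these and in the quantile, median-of-ratios, block, GC and length, and mitochondrial alternatives. Among all genes, 2.96%, 7.16% and 7.57% were increased without a filter, without the eBayes trend and with the block and both trends removed. Without the eBayes trend 16.5% were decreased, with the block and both trends removed 15.9%, and without mitochondrial genes 18.1%. With each library left out, 6.23% to 10.3% of all genes were increased and 13.1% to 18.5% were decreased. Causes were not tested. Same-numbered vehicle and LLY-283 libraries did not deviate together (correlations -0.085 to 0.032, and 0 of 4 correlated best with its own number). Unlike numbers gave correlations from -0.213 to 0.201. Pairing by number was thus not seen, but a shared deviation too weak to show here would be missed. The labels do not say whether same-numbered cultures were handled together. The block moved the calls over all genes from 1247 to 1095 increased and from 2541 to 2201 decreased, whereas median-of-ratios scaling gave 1927 increased and 1867 decreased and quantile normalization 1871 and 1820. TPM hides depth, which limits the precision that can be stated.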

Other observations

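Among 15 genes of nonsense-mediated decay and the exon junction complex, the machinery that removes SR transcripts with a poison exon, 4 were increased and 2 were decreased at an adjusted p-value under 0.05 (limma), with a median log2FC of 0.06, beside 8.61% increased and 17.6% decreased among all genes tested. The decreased genes numbered 1 without any single library other than LLY-283 replicate 2 (3 genes) or LLY-283 replicate 4 (2 genes). Over all genes, the decreased share in these fits ranged from 13.1% (without vehicle replicate 4) to 18.5% (without LLY-283 replicate 4). MAGOH, a core protein of the exon junction complex, rose from 159.7 ± 3.37 to 186.3 ± 5.04 TPM (mean ± SD of 4 libraries each), a log2FC of 0.22 (limma adjusted p = 0.00076). CASC3, of the same complex, and UPF3B, which links it to the decay factors, had log2FC values of 0.15 (adjusted p = 0.00936 and 0.0126). UPF3A fell from 30.0 ± 0.868 to 27.1 ± 0.584 TPM (log2FC -0.15, limma adjusted p = 0.017) and UPF2, an adaptor of the decay machinery, from 9.92 ± 0.545 to 8.60 ± 0.304 TPM (log2FC -0.20, limma adjusted p = 0.0285), calls that were lost in 3 and 9 of 20 alternatives, respectively.

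Of 25 genes for hnRNP, PTB and PCBP proteins, which often oppose SR proteins at exons, 7 were increased and 1 was decreased, with a median log2FC of 0.03, beside 18.5% increased and 11.7% decreased among the genes averaging 100 TPM or more and 8.61% and 17.6% among all genes tested. The increased genes numbered 3 without vehicle replicate 2, and 4 without vehicle replicate 4 or LLY-283 replicate 3. Over all genes, 6.43%, 6.23% and 6.5% were increased in these fits, respectively. PTBP2, the PTB protein of neurons, rose from 16.9 ± 0.895 to 29.45 ± 2.4 TPM (mean ± SD of 4 libraries each), a log2FC of 0.80 (limma adjusted p = 7.51e-05). HNRNPUL2 had a log2FC of 0.27 (adjusted p = 0.000539) and HNRNPDL one of 0.18 (adjusted p = 0.00076). The decreased gene, HNRNPH3 (log2FC -0.08, limma adjusted p = 0.0495), kept its call in 4 of 20 alternatives.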
